A study of Mus musculus with 23 samples.

Results

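Of the 27207 genes counted in this series, 37 were taken as the p53 target genes. They are p53 itself (Trp53) and 36 genes named as targets that p53 raises, picked by symbol as known members of the pathway. Whether p53 raises each of them in mouse cells was not checked. The rule used no measured value, but earlier results of these data were known when the genes were chosen. All 37 have a row in the table of counts, and 35 passed the filter on low counts and were tested. Pidd1, a death-domain protein of the PIDDosome, and Eda2r, the receptor of ectodysplasin A2, did not pass it.

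The study cultured pancreatic ductal adenocarcinoma (PDAC) cells of the mouse, either as flat 2D cultures or as organoids grown in a gel, and sequenced the 3' ends of their polyadenylated RNA. KC cells came from mouse 9591, which carried Ptf1a Cre/+, and KPC cells from mouse 14390, which carried Pdx1 Cre/+. The lines thus have different Cre drivers, both active in the pancreas, and Trp53 is floxed on both alleles in the KPC line alone. The 23 libraries fall into 6 groups, of which 4 are KC cells of batch 1: 2D cultures (n = 6), day 7 organoids in collagen (n = 3), day 13 organoids in collagen (n = 5) and day 13 organoids in Matrigel (n = 3). Batch 2 held day 13 organoids in collagen of both genotypes, KC (n = 3) and KPC (n = 3). Matrigel is a gel of basement membrane proteins, and the collagen was type I. Each genotype is 1 line from 1 mouse, so that genotype, Cre driver and line cannot be told apart.

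p53 is a transcription factor that is kept at a low level by the ubiquitin ligase Mdm2 and accumulates after DNA damage, oncogene activity and other stresses. It binds pairs of a decamer in or near its target genes and raises genes of cell cycle arrest, cell death, DNA repair and metabolism, together with Mdm2 and other genes that restrain it. In pancreatic tumours, loss of p53 function is frequent.

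Promoter windows of RefSeq (GRCm38.p6, from 250 bases before to 50 bases after an annotated start) were matched by symbol for 29 of the 37 genes. They were searched on both strands for the p53 dimer motif, a pair of decamers with no spacer. The core C and G of each decamer were required to match, and at most 3 mismatches were allowed in the 20 bases. Such a match lay in the windows of 8 of the 29 genes and of 1.632% of the 27025 genes with a window. With at most 1 mismatch it lay in those of 3 of the 29 and of 0.081% of all. The windows of 5 genes on which the results below turn are printed over 50 bases, 5′ to 3′ on the gene's strand, with the matched 20 bases in capitals.
Cdkn1a: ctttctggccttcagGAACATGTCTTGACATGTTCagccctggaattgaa
Ccng1: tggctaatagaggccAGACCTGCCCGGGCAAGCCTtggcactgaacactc
Rps27l: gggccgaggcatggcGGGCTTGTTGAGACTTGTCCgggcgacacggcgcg
Trp53: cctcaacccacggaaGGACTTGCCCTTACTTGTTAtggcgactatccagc
Tigar: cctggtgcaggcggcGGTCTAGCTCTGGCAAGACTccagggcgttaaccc
The Cdkn1a stretch is at chr17:29090913-29090962 (+), the Ccng1 stretch at chr11:40755447-40755496 (-) and the Rps27l stretch at chr9:66946281-66946330 (+), each with 1 mismatch. The Trp53 stretch is at chr11:69580269-69580318 (+) and the Tigar stretch at chr6:127109731-127109780 (-), each with 3 mismatches. The motif is centred 41 bases before a RefSeq start in Cdkn1a, 185 in Ccng1, 107 in Rps27l, 65 in Trp53 and 203 in Tigar. Where a gene had several windows, the one that matched best was kept, and each distance is to the start of that window. Which starts these cells use was not examined. GENCODE M21 starts Rps27l at base 66946086, so that on that model the stretch lies within the gene. The other 3 matches, in Bbc3, Aen and Sesn1, have 3 mismatches each. A match is a description of the letters and not a measured binding site.

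Libraries held 1221451 to 2471058 counts of unique molecular identifiers (UMIs, tags that mark single cDNA molecules), with a median of 1845921. Levels are CPM, counts scaled to a common library size of 1e6 after edgeR's TMM normalisation. The upper limit for a gene with no count is taken as 3 counts, or 1.16 to 3.22 CPM depending on the library, and covers counting error only. The 6 epithelial markers, among them Epcam, Cdh1 and Krt19, were detected in every group and summed to 7016 to 13882 CPM per library. Fibroblast, immune and endothelial markers summed to at most 152, 36.2 and 2.67 CPM. Replicates of a group differed from each other by more than sampling noise in all 37 pairs of libraries that were compared, and the labels do not say which came from separate cultures, so p-values measure the spread between these libraries. The 2D libraries fell apart into replicates 1 to 3 and 4 to 6, which did not overlap in 47.5% of the tested genes. The 2D results are given with each of these subsets too, which were formed after the data had been seen. In bulk RNA, fewer cells that express a gene and less RNA per cell cannot be told apart.

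KPC organoids were compared with KC organoids of the same batch, matrix and day to ask what differs in the line with floxed Trp53. Of the 35 tested genes, 15 were lower in KPC organoids and 1 was higher at an adjusted p under 0.1 (edgeR's quasi-likelihood F-test, Benjamini-Hochberg over 11144 genes), the threshold used throughout. Over all tested genes 19.9% were called, 10.4% lower and 9.58% higher. The median log2 fold change of the 35 was -0.54, against 0.01 over all genes. Both the 15 and the 35 include Trp53 itself, the gene that is floxed in this line. The genes that fell most were the death receptor Fas, Trp53, the cell cycle inhibitor Cdkn1a, the carbonyl reductase Dcxr and the BH3-only protein Pmaip1. The regulator Mdm2 and the death effectors Bax and Bbc3 were not called.

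**Figure D1:**
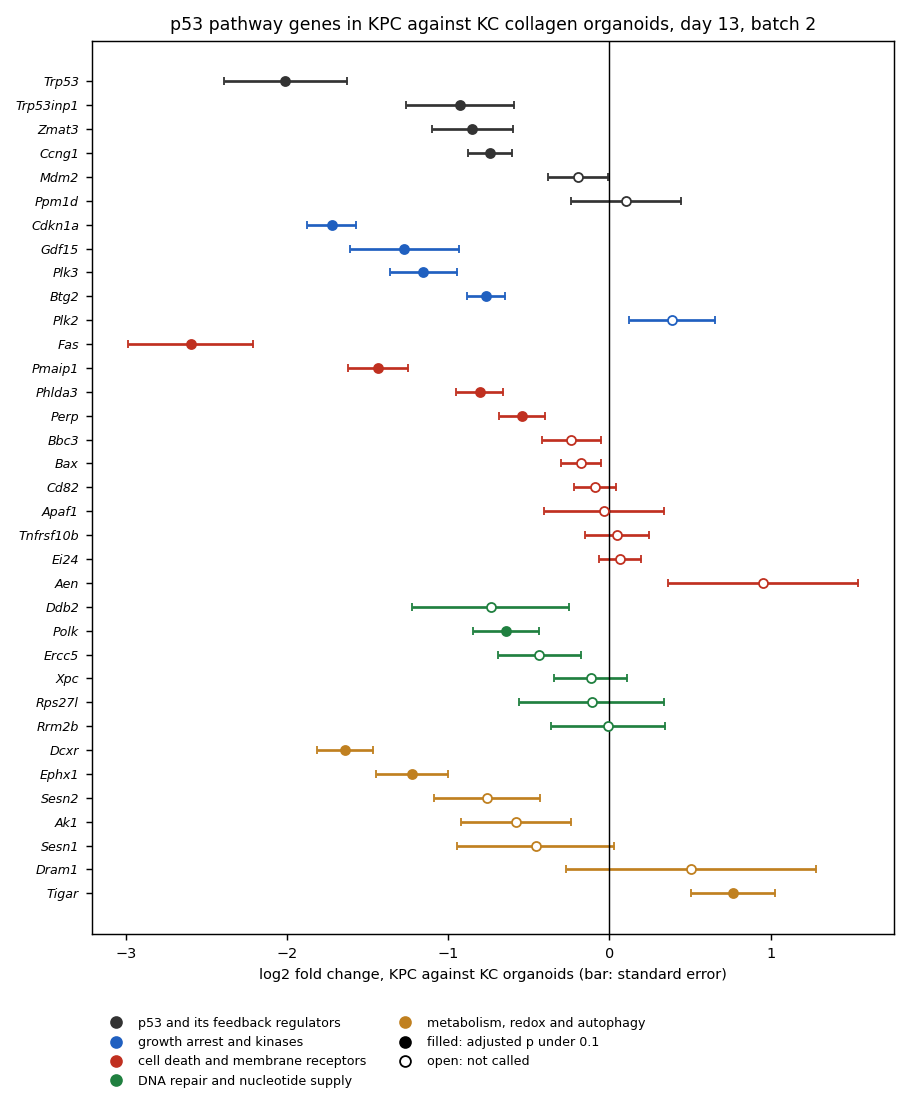
Log2 fold change of the 35 tested genes in KPC against KC organoids of batch 2 (3 libraries each), grouped and coloured by role, with bars for the standard error. Filled points passed an adjusted p of 0.1, and the 15 that lie left of 0 run from -2.60 for Fas to -0.54 for Perp, with Tigar alone on the right at 0.77.

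Trp53 (ENSMUSG00000059552, GRCm38 chr11:69580359-69591873, +) was counted at 52.3, 48.8 and 48.0 CPM in the KC libraries of batch 2 and at 13.4, 10.8 and 12.7 CPM in the KPC libraries. The KPC values lie below those of all 20 KC libraries, of which the lowest was 35.4 CPM. The mean was 12.3 ± 1.36 CPM (SD, n = 3) in KPC and 49.7 ± 2.30 CPM (SD, n = 3) in KC organoids of batch 2, a log2 fold change of -2.01 (SE 0.38, adjusted p = 0.000539). Transcripts thus remained at 18 to 24 UMIs per KPC library. The exons removed in this line are not given in the sources used here, and a 3' tag outside the deleted part would not check the deletion.

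Among the regulators that p53 induces and that feed back on it, 3 more were lower. Ccng1, the atypical cyclin G1 (chr11:40748552-40755311, -), had 99.3, 106 and 99.3 CPM in KC and 56.8, 64.6 and 60.7 CPM in KPC organoids, without overlap, and a log2 fold change of -0.74 (SE 0.14, adjusted p = 0.000343). Zmat3, an RNA-binding zinc finger protein, went from 20.1 ± 4.79 CPM (SD, n = 3) to 11.0 ± 1.80 CPM (SD, n = 3), a log2 fold change of -0.85 (SE 0.25, adjusted p = 0.0220). Trp53inp1, which promotes p53 phosphorylation and autophagy, fell by 0.93 (SE 0.34, adjusted p = 0.0655), from 19.0 ± 4.96 CPM (SD, n = 3) to 9.89 ± 1.38 CPM (SD, n = 3). Its call was lost when any library other than KC replicate 3 was left out, with log2 differences of -1.09 to -0.72 over the fits with 1 library fewer. Mdm2 (chr10:117688875-117710758, -) had 40.4, 30.7 and 28.7 CPM in KC and 26.8, 32.9 and 27.4 CPM in KPC libraries. These groups overlap, and the log2 difference of -0.19 (SE 0.19, adjusted p = 0.562) was not called. The phosphatase Ppm1d was at 14.1 CPM in KC and 15.2 CPM in KPC organoids and was not called (adjusted p = 0.895).

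Of the 5 genes of growth arrest and stress kinases, 4 were lower. Cdkn1a, which encodes the cyclin-dependent kinase inhibitor p21 (chr17:29090976-29100727, +), had 1032, 1143 and 841 CPM in KC and 285, 271 and 357 CPM in KPC libraries. Every KPC library was below every KC library of the batch, and the log2 fold change was -1.72 (SE 0.15, adjusted p = 1.26e-08). Gdf15, a secreted stress cytokine of the TGF-beta family (chr8:70629393-70632456, -), had 21.2, 16.7 and 13.3 CPM in KC and 5.11, 11.4 and 4.75 CPM in KPC libraries. The KPC values rest on 8, 19 and 9 UMIs, and no KPC library reached the lowest KC library. Its log2 fold change was -1.27 (SE 0.34, adjusted p = 0.0107). Plk3, a polo-like kinase (chr4:117128655-117133963, -), had 39.1, 46.7 and 42.6 CPM against 23.6, 16.8 and 17.4 CPM, without overlap, and fell by 1.16 (SE 0.21, adjusted p = 0.000298). The last kilobase of Plk3 overlaps Tctex1d4 on the other strand, and the sources used here do not say whether counting used the strand. The antiproliferative gene Btg2 (chr1:134075170-134079120, -) had 529, 639 and 610.4 CPM in KC and 339, 356 and 353 CPM in KPC libraries, a log2 fold change of -0.76 (SE 0.12, adjusted p = 4.93e-05). Plk2, another polo-like kinase, was not called at a log2 difference of 0.39 (SE 0.26, adjusted p = 0.380).

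Of the 11 tested genes of cell death and membrane receptors, 4 were lower and 7 were not called. Fas (chr19:34290666-34327772, +) had 11.3, 10.5 and 14.7 CPM in KC libraries of batch 2 and 1.28, 2.39 and 2.11 CPM in KPC libraries. The KPC values stand for 2, 4 and 4 UMIs, around the floor of 1.58 to 1.92 CPM, and the fitted log2 fold change was -2.60 (SE 0.39, adjusted p = 3.19e-05). Pmaip1, which encodes the BH3-only protein Noxa, had 63.6, 67.6 and 48.0 CPM in KC and 18.5, 27.5 and 20.1 CPM in KPC libraries, and its log2 fold change was -1.43 (SE 0.19, adjusted p = 5.64e-06). No KPC library reached the lowest KC library in either gene. Phlda3, an inhibitor of Akt, had 88.1, 69.0 and 82.0 CPM in KC and 47.3, 41.9 and 47.5 CPM in KPC libraries and fell by 0.81 (SE 0.15, adjusted p = 0.000358). Perp, a tetraspan protein of desmosomes, fell by 0.54 (SE 0.14, adjusted p = 0.00896), from 321 ± 36.5 CPM (SD, n = 3) to 221 ± 22.1 CPM (SD, n = 3). Bax, which permeabilises the outer mitochondrial membrane, had 142, 153 and 171 CPM in KC and 137, 139 and 137 CPM in KPC libraries. Its groups did not overlap, but the log2 difference of -0.18 (SE 0.13, adjusted p = 0.406) was not called. Bbc3, which encodes Puma, had a log2 difference of -0.24 (SE 0.18, adjusted p = 0.450). The tetraspanin Cd82, the apoptosome scaffold Apaf1, the TRAIL receptor Tnfrsf10b and the endoplasmic reticulum protein Ei24 had log2 differences between -0.09 and 0.07. The exonuclease Aen rested on 1 to 6 UMIs per library and had a log2 difference of 0.95 (adjusted p = 0.323).

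Of the 6 genes of DNA repair and nucleotide supply, 1 was lower. The translesion polymerase Polk had 27.8, 37.7 and 37.3 CPM in KC and 25.6, 19.8 and 20.6 CPM in KPC libraries, without overlap, and a log2 fold change of -0.64 (SE 0.20, adjusted p = 0.0331). The call was lost without replicate 2 or 3 of either group (-0.78 to -0.58 over the fits with 1 library fewer). Not called were the nucleotide excision repair genes Xpc, Ddb2 and Ercc5 (-0.12, -0.74 and -0.44 on the log2 scale), the ribonucleotide reductase subunit Rrm2b (-0.01) and the ribosomal protein gene Rps27l (-0.11). The last kilobase of Ddb2 overlaps Acp2 on the other strand. Rps27l, whose window holds the motif with 1 mismatch, had 442, 447 and 447 CPM in KC and 423, 385 and 428 CPM in KPC libraries. Rps27l is a close paralog of Rps27, and how reads shared by such genes were assigned is not given in the sources used here, so its level is uncertain.

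Of the 7 genes of metabolism, redox and autophagy, 2 were lower and 1 was higher. Dcxr (chr11:120725399-120727281, -), which reduces dicarbonyls and xylulose, had 88.1, 93.4 and 85.3 CPM in KC and 26.8, 31.1 and 27.4 CPM in KPC libraries, with a log2 fold change of -1.64 (SE 0.18, adjusted p = 3.33e-07). The epoxide hydrolase Ephx1 (chr1:180976210-181020904, -) had 183, 168 and 143 CPM against 71.5, 77.2 and 62.8 CPM and a log2 fold change of -1.23 (SE 0.22, adjusted p = 0.000331). The largest KPC value of each lay well below the lowest KC value. A pseudogene, Gm36961, overlaps the last kilobase of Ephx1 on the same strand. Tigar, a fructose bisphosphatase that limits glycolysis, was the gene that rose, with 12.6, 11.9 and 15.99 CPM in KC and 17.2, 31.1 and 20.6 CPM in KPC libraries. Its log2 fold change was 0.77 (SE 0.26, adjusted p = 0.0465), and the call was lost without KC replicate 1 or 2 or KPC replicate 2 (0.49 to 0.91 over the fits with 1 library fewer). The sestrin Sesn2 had a log2 difference of -0.76 (SE 0.33, adjusted p = 0.130) with groups that did not overlap, and Sesn1, the adenylate kinase Ak1 and the autophagy regulator Dram1 were not called (-0.46, -0.58 and 0.51).

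Without a test, the KPC and KC libraries of batch 2 did not overlap in 19 of the 35 genes, 18 of them lower in KPC and 1 higher, where 37.3% of all tested genes did not overlap, 18.5% with KPC lower and 18.9% with KPC higher. Scaling by library size alone moved the median log2 fold change of all genes from 0.01 to 0.13. Zmat3, Polk and Perp then lost their calls, and 13 genes kept theirs. Summed levels of the cell type markers were compared as well. The 3 immune markers with a row, of which 1 passed the count filter, summed to 5.39 to 11.6 CPM in KPC libraries. In KC libraries of batch 2 they summed to 18.7 to 21.2 CPM, with Lyz2 at 0 in all libraries of both groups. The 7 fibroblast markers summed to 28.0 to 42.8 CPM in KPC and 37.7 to 54.0 CPM in KC libraries, ranges that overlap. Lum was at 0 in the KC libraries. The 6 epithelial markers summed to 9707 to 11247 CPM in KPC and to 12246 to 13882 CPM in KC libraries. The part of these differences in the results was not tested.

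KC organoids in collagen at day 13 were sequenced in both batches, and 14 of the 35 genes differed between them, where 37.3% of all tested genes were called, 19.3% higher and 18.1% lower in batch 2. The libraries did not overlap in 11 of the 35 (6 higher and 5 lower), against 35.9% of all genes (18.1% and 17.9%). Of the 14 genes, 7 were higher in batch 2 (Cdkn1a, Polk, Xpc, Trp53inp1, Ercc5, Plk3 and Perp) and 7 were lower (Ak1, Plk2, Ei24, Mdm2, Bax, Ephx1 and Phlda3). Of the 8 fits that left out 1 library, Ephx1 lost its call in 6 (kept without batch 1 replicate 4 or 5), Plk3 in 5 (kept without batch 1 replicate 4 or 5 or batch 2 replicate 1) and Perp in 4 (without replicate 2 or 3 of batch 1 or 1 or 2 of batch 2). Ercc5 lost it without replicate 3 of batch 2 and Phlda3 and Trp53inp1 without replicate 2. Ephx1, Plk3 and Perp were not called with scaling by library size, and Ephx1 was not called with DESeq2.

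Cdkn1a had 354, 330.4, 292, 382 and 475 CPM in batch 1 against 841 to 1143 CPM in batch 2, a log2 fold change of 1.45 (SE 0.13, adjusted p = 9.27e-09). The KPC level of Cdkn1a, 271 to 357 CPM, thus overlapped the KC level of batch 1. Polk had 13.4 to 20.2 CPM in batch 1 and 27.8 to 37.7 CPM in batch 2 (1.08, SE 0.18, adjusted p = 7.02e-05). Xpc, which recognises DNA lesions, had 11.2 to 19.5 and 23.8 to 30.0 CPM (0.86, SE 0.21, adjusted p = 0.00262). Trp53inp1 differed by 0.82 (adjusted p = 0.0318) in the same direction, and by 0.61 with no call without replicate 2 of batch 2 (adjusted p = 0.218). Mdm2 had 43.1, 58.0, 58.9, 46.1 and 59.9 CPM in batch 1, all above the highest KC library of batch 2 at 40.4 CPM, and a log2 fold change of -0.67 (SE 0.16, adjusted p = 0.00216) in batch 2. The largest falls were those of Ak1, Plk2 and Ei24, by 1.02, 0.89 and 0.71 on the log2 scale. Trp53 had 65.4, 64.3, 63.6, 35.4 and 35.7 CPM in batch 1, a range that holds the values of batch 2. Mitochondrial genes held 3.01% to 4.83% of the counts in batch 1 and 5.59% to 6.18% in batch 2, and the 6 epithelial markers summed to 9505 to 11411 and to 12246 to 13882 CPM. The immune markers summed to 12.1 to 21.5 and 18.7 to 21.2 CPM, with Lyz2 at 0, and the part of these differences in the results was not tested.

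With the 5 KC libraries of batch 1 as the reference, a comparison added after the data had been seen in which batch and line cannot be told apart, 21 genes were called in KPC organoids, 18 lower and 3 higher, where 43.2% of all tested genes were called, 21.2% lower and 21.9% higher. Cdkn1a was then no longer called (log2 difference -0.27, SE 0.13, adjusted p = 0.122), nor were Trp53inp1 and Perp. Mdm2 was called at -0.87 (SE 0.16, adjusted p = 0.000127) and Bax at -0.72 (adjusted p = 1.71e-05). Polk turned from lower to higher (0.43, adjusted p = 0.0810). Also higher were Tigar (1.18, adjusted p = 0.000194) and Xpc (0.74, adjusted p = 0.00627). Tigar was higher with all 8 KC libraries too (1.03, adjusted p = 0.00153). With all 8 KC libraries as the reference Mdm2 was called at -0.66 (adjusted p = 0.0219), Cdkn1a at -0.99 (adjusted p = 0.0320), and Trp53inp1 and Polk were not. Of the 15 genes lower in KPC organoids of batch 2, 11 lay below every KC library of batch 1 as well, namely Trp53, Fas, Dcxr, Pmaip1, Ephx1, Plk3, Btg2, Gdf15, Phlda3, Ccng1 and Zmat3. Of all tested genes 19.4% lay below every KC library of batch 1, and of the 1155 called lower in KPC organoids of batch 2, 54.3% did. The 4 that overlapped batch 1 were Cdkn1a, Trp53inp1, Perp and Polk.

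**Figure D2:**
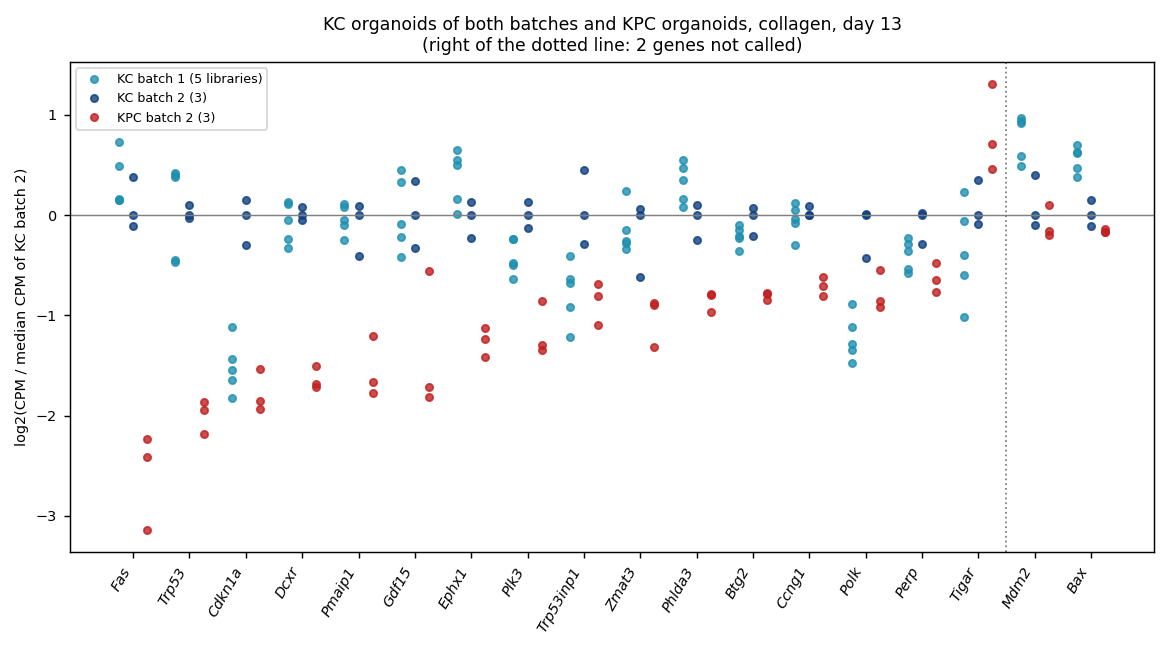
Level of the 16 called genes and of Mdm2 and Bax in each library of KC batch 1 (5), KC batch 2 (3) and KPC batch 2 (3) organoids, as log2 of CPM over the median of the KC libraries of batch 2. For Cdkn1a and Polk the KC libraries of batch 1 lie below those of batch 2 and overlap those of KPC, and for Mdm2 and Bax they lie above both groups of batch 2.

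Genes around p53 were counted in the same comparison, where 9.58% of all tested genes were higher and 10.4% lower in KPC organoids. Of 13 tested upstream regulators 4 were higher and none was lower in KPC organoids. Cdkn2a, which encodes p16 and the Mdm2 inhibitor p19Arf, rose from 8.06 ± 3.44 CPM (SD, n = 3) to 216 ± 16.8 CPM (SD, n = 3), by 4.73 on the log2 scale (SE 0.30, adjusted p = 3.62e-11). The checkpoint kinase Chek2 (1.16), the damage kinase Atm (0.76) and the deacetylase Hdac1 (0.75) rose as well, and Mdm4, the relative of Mdm2, was not called (-0.22). Atm and Chek2 lost their calls in 5 and 4 of the 6 fits that left out 1 library. Trp63 and Trp73, the paralogs of Trp53, were at or near 0 in all groups and were not tested. In the list of 25 further p53 targets 6 were lower and 2 higher, among them the inflammatory caspase Casp1 (-3.76), the EGF family ligand Hbegf (-1.07) and, upwards, Sfn, a 14-3-3 protein (2.03), and the Kit ligand Kitl (0.42).

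Among 20 cell cycle genes that p53 represses through p21 and the DREAM complex, 12 were higher and none was lower in KPC organoids. Their median was 0.71. Over all tested genes 9.58% were higher and 10.4% lower in this comparison. The anaphase activator Cdc20 (1.16), the spindle checkpoint kinase Bub1 (1.06) and cyclin B1, Ccnb1 (1.04), rose most. Against the KC libraries of batch 1, 8 of 20 were higher, where 21.9% of all tested genes were, and the median was 0.35. Of 13 immediate early genes 9 were lower and none was higher, Atf3 (-1.62), Egr1 (-1.12) and Fos (-1.04) most of all. Within KC organoids 8 of these 13 were higher in batch 2 than in batch 1, where 19.3% of all tested genes were. Against batch 1 as the reference 5 were lower and 3 higher in KPC organoids, where 21.2% and 21.9% of all were. There Atf3 at -0.04 and Fos at -0.16 were not called. Of 13 genes of the integrated stress response 7 were lower, led by Stc2 (-1.89), Slc7a11 (-1.72) and Chac1 (-1.41), and the serine synthesis gene Psat1 was higher (0.54). When 1 library was left out, Kitl lost its call in 5 of 6 fits, Psat1 in 3, Chac1 in 2 and Bub1 in 1. With batch 1 as the reference Chek2, Hbegf, Ccnb1, Slc7a11 and Psat1 were not called. Of the 13 stress response genes 9 were then lower and none higher, where 21.2% of all tested genes were lower. Their median was -0.89, against -0.59 with KC organoids of batch 2. These lists were chosen with earlier results in view and are described by their counts alone.

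**Figure D3:**
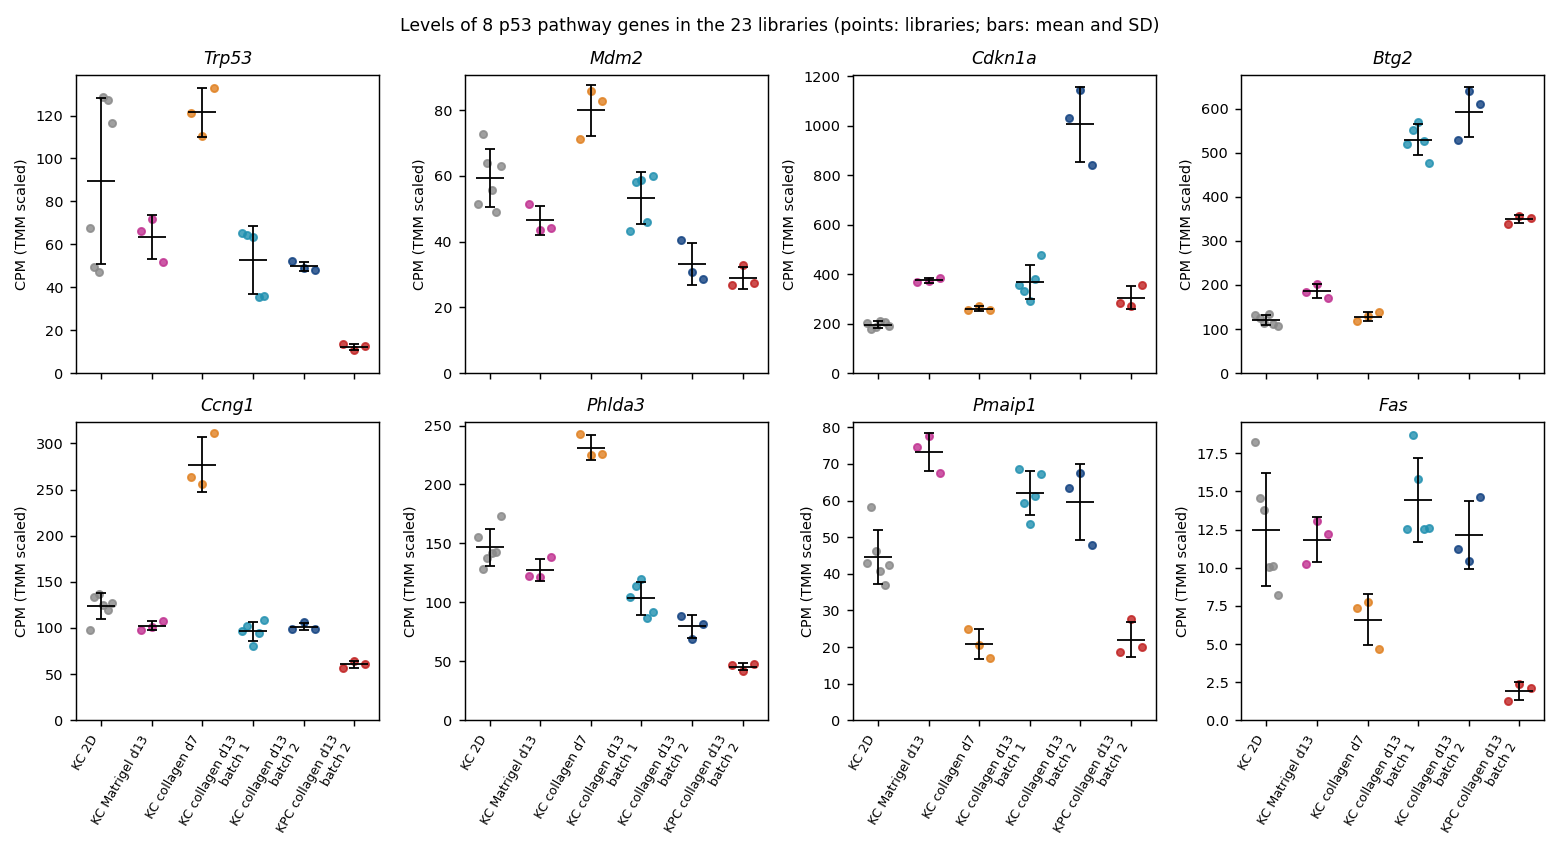
CPM of 8 genes in each of the 23 libraries by group, with black bars for the mean and SD. Trp53, Ccng1, Phlda3 and Mdm2 are highest in collagen at day 7, Btg2 in KC organoids in collagen at day 13, Cdkn1a in KC organoids of batch 2, and Trp53 and Fas lowest in the KPC libraries.

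Collagen organoids at day 7 were compared with those of day 13 in the same batch. Of the 35 genes 10 were higher and 11 lower at day 7, shares near those of all tested genes, of which 55.1% were called, 28.1% higher and 27.1% lower. Day 7 and day 13 libraries did not overlap in 20 of the 35, against 48.3% of all tested genes, with 11 of the 20 higher at day 7 (25.4% of all) and 9 lower (22.9%). Trp53 had 121, 110.4 and 133 CPM at day 7, above all 5 libraries of day 13, and was 1.197 higher on the log2 scale (SE 0.25, adjusted p = 0.000318). The genes that rose most were Aen, Gdf15, Ccng1 and Zmat3. Aen had 16.7, 15.1 and 17.5 CPM at day 7 and 2.78, 1.44, 4.31, 4.03 and 3.68 CPM at day 13 (2.31, SE 0.30, adjusted p = 5.02e-07). Gdf15 had 39.7, 59.3 and 67.8 CPM against 12.5, 14.4, 21.1, 22.8 and 15.8 CPM (1.68, SE 0.20, adjusted p = 1.72e-07). The groups did not overlap in either gene. Ccng1 had 264, 256 and 311 CPM against 80.9 to 108 CPM (1.52, SE 0.11, adjusted p = 2.92e-11), and Zmat3 had 46.6, 43.8 and 56.7 CPM against 17.6 to 26.4 CPM (1.27, SE 0.17, adjusted p = 6.81e-07). Phlda3 (1.16), Bax (1.12), Rps27l (1.10), Mdm2 (0.59) and Plk2 (0.46) rose too.

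The largest falls at day 7 were those of Dram1, Btg2, Pmaip1 and Dcxr. Dram1 had 0, 0 and 2 UMIs at day 7 and 4.64, 3.36, 2.87, 1.79 and 2.63 CPM at day 13, and against the floor of 3 counts it was at least 2.34-fold lower. Btg2 had 117, 129 and 138 CPM at day 7 and 521, 551, 569.9, 527 and 477 CPM at day 13, and fell by 2.04 (SE 0.12, adjusted p = 5.06e-13). Pmaip1 had 25.01, 20.5 and 17.1 CPM against 53.6 to 68.6 CPM (-1.58, SE 0.16, adjusted p = 1.73e-08), and Dcxr 37.3, 40.3 and 29.8 CPM against 70.3 to 96.1 CPM (-1.23, SE 0.15, adjusted p = 2.28e-07). All 3 day 7 libraries lay below all 5 of day 13 in these genes. Cd82 (-1.17), Ephx1 (-1.13), Fas (-1.12), Bbc3 (-0.64), Xpc (-0.54), Cdkn1a (-0.49) and Plk3 (-0.36) fell as well. Of the 8 fits that left out 1 library, Plk3 lost its call in 6 (kept without day 13 replicate 1 or 2), Xpc in 3 (without day 7 replicate 1 or 3 or day 13 replicate 1) and Plk2 in 2 (without day 7 replicate 3 or day 13 replicate 5). Plk3 was not called with DESeq2, with no count filter or with the replicate number as a block, and Plk2 and Rps27l were not called with that block. Cdkn1a had 254, 271 and 257 CPM at day 7, below the lowest library of day 13 at 292 CPM, while Trp53 was higher. Among p53 and its feedback regulators, 4 of the 6 tested genes rose, Trp53 included, and none fell. In metabolism, redox and autophagy 3 of 7 fell and none rose. Over all tested genes 28.1% were higher and 27.1% lower at day 7.

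This comparison shares no library with that of KPC and KC in batch 2, and their calls can be set side by side. Of the 15 genes lower in KPC organoids, 5 were higher at day 7 (Trp53, Ccng1, Zmat3, Gdf15 and Phlda3), 7 were lower at day 7 (Cdkn1a, Btg2, Plk3, Pmaip1, Fas, Ephx1 and Dcxr) and 3 were not called at day 7 (Trp53inp1, Perp and Polk). Over all tested genes 28.1% were higher and 27.1% lower at day 7. How all genes called lower in KPC organoids split at day 7 was not counted, so the split of the 15 has no such share beside it. Of the 20 genes repressed through p21 and DREAM, all 20 were higher at day 7, with a median of 1.62. Scaling by library size left 19 of them higher, and 2629 of the 11144 tested genes. Of the 13 upstream regulators 6 rose, Cdkn2a most (1.78), then Chek1 (1.63), a gene of the DREAM list too, and 1 fell. The further p53 targets had 5 higher and 9 lower of 25, led by Epha2 (1.22) and Casp1 (-2.84). The immediate early genes had 2 higher and 9 lower of 13, and the stress response genes 4 in each direction. The immune markers summed to 3.41 to 5.88 CPM at day 7 and to 12.1 to 21.5 CPM at day 13, with Lyz2 at 0 throughout, and the part of this in the results was not tested.

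Organoids in Matrigel were compared with organoids in collagen at day 13 in batch 1. Of the 35 genes 4 were lower and 2 higher in Matrigel, where 12.9% of all tested genes were called, 6.29% lower and 6.62% higher. The groups did not overlap in 9 of the 35, with 5 lower and 4 higher in Matrigel, where they did not overlap in 19.5% of all tested genes, 10.1% lower and 9.41% higher. Trp53 had 66.1, 71.9 and 51.9 CPM in Matrigel, Mdm2 51.5, 43.6 and 44.3 CPM and Cdkn1a 367, 374 and 386 CPM, and none of these was called (log2 differences of 0.27, -0.19 and 0.03). Btg2 had 185, 202 and 170.2 CPM in Matrigel and at least 477 CPM in collagen, and fell by 1.51 (SE 0.11, adjusted p = 9.90e-10). Plk3 had 20.1, 14.4 and 12.8 CPM in Matrigel and 27.4, 30.2, 30.6, 36.3 and 36.3 CPM in collagen (-1.002, SE 0.19, adjusted p = 0.000712). No Matrigel library reached the collagen range in these genes. Ei24 (-0.48, SE 0.11, adjusted p = 0.00340) and Perp (-0.35, SE 0.13, adjusted p = 0.0851) were lower, and Apaf1 (0.80, SE 0.28, adjusted p = 0.0778) and Dcxr (0.40, SE 0.13, adjusted p = 0.0601) higher. Of the 8 fits that left out 1 library, Perp lost its call in 6 and Apaf1 and Dcxr in 4 each. In the same libraries 9 of the 13 immediate early genes were lower and 1 was higher, with Fosb (-2.86), Egr1 (-2.77) and Fos (-2.58) most of all. None of the 20 genes of the DREAM list was called, 4 of the further p53 targets were higher and 4 lower, 1 upstream regulator was higher, Ep300 (0.63), and 2 stress response genes were higher. The immune markers summed to 30.3 to 36.2 CPM in Matrigel and to 12.1 to 21.5 CPM in collagen, with Lyz2 at 0 in both, and their part was not tested.

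KC cells in 2D, which were lysed directly while organoids were first digested with collagenase, were compared with collagen organoids of day 13 in batch 1. Here 11 genes were higher and 8 lower in 2D, where 49.6% of all tested genes were called, 26.3% higher and 23.3% lower. The libraries did not overlap in 12 of the 35, against 20.3% of all tested genes, with 6 higher in 2D (9.97% of all) and 6 lower (10.4%). Rps27l, Trp53inp1, Dram1 and Aen (0.81) rose most, followed by Trp53 (0.81), and Btg2, Plk3, Cdkn1a and Cd82 fell most. Btg2 had 107 to 135 CPM in 2D and 477 to 569.9 CPM in collagen, and fell by 2.14 (SE 0.0910, adjusted p = 1.06e-14). Plk3 had 10.6 to 21.3 CPM against 27.4 to 36.3 CPM (-1.05, SE 0.16, adjusted p = 1.70e-05). Cdkn1a had 180.4 to 212 CPM against 292 to 475 CPM (-0.90, SE 0.11, adjusted p = 7.62e-07), and Cd82 136 to 164 CPM against 209 to 291 CPM (-0.75, SE 0.0984, adjusted p = 1.64e-06). In these 4 genes all 6 libraries of 2D lay below all 5 of collagen. The other genes that rose were Gdf15 (0.78), Bax (0.73), Bbc3 (0.60), Phlda3 (0.51), Plk2 (0.43) and Ccng1 (0.36), and the others that fell were Polk (-0.65), Dcxr (-0.57), Pmaip1 (-0.50) and Ei24 (-0.49). Mdm2 was not called (0.15, SE 0.12, adjusted p = 0.348).

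In 17 of the 35 tested genes 2D replicates 1 to 3 did not overlap replicates 4 to 6, a share close to the 47.5% of all tested genes. Trp53 had 67.7, 49.5, 47.3, 129, 127 and 117 CPM in replicates 1 to 6, and the last 3 were above the others. With replicates 1 to 3 alone Trp53 was not called (log2 difference 0.06, adjusted p = 0.804), and with replicates 4 to 6 alone it was 1.201 higher than in collagen (adjusted p = 3.20e-08). Rps27l had 2377, 3029, 3746, 657, 631 and 695 CPM, here with the first 3 above the others. It was higher than in collagen with either subset, by 2.63 and 0.37, and over all 6 by 1.89 (SE 0.34, adjusted p = 0.000111). Its paralog Rps27 had 4532, 6190, 6309, 4244, 3726 and 3381 UMIs in replicates 1 to 6. The ribosomal protein gene Rps27a had 3174, 4568, 5036, 1952, 1778 and 1519 UMIs. In both the first 3 were above the others too, and the part of this in the level of Rps27l was not tested. Trp53inp1 had 26.8, 39.8, 23.7, 15.1, 16.8 and 13.0 CPM and rose by 0.98 over all 6 libraries (SE 0.24, adjusted p = 0.00193), and by 1.51 with replicates 1 to 3. With replicates 4 to 6 its log2 difference of 0.46 was not called (adjusted p = 0.101). Dram1 rose by 0.87 over all 6 (SE 0.39, adjusted p = 0.0728) and was not tested with replicates 4 to 6 alone, where it failed the filter. Aen had a log2 difference of 0.68 there and was not called (adjusted p = 0.162). Of the 11 fits that left out 1 library, Dram1 had no call in 5, being not called without collagen replicate 3, 4 or 5 and not tested without 2D replicate 2 or 3. Aen had none in 2 (without 2D replicate 1 or collagen replicate 2), nor had Plk2 in 2 (without 2D replicate 3 or collagen replicate 5). Btg2, Plk3, Cdkn1a, Cd82, Polk, Dcxr, Pmaip1, Ei24, Bax, Bbc3, Gdf15, Phlda3 and Ccng1 were called in the same direction with either subset. With replicates 1 to 3 alone 22 genes were called, where 54.9% of all tested genes were, and with replicates 4 to 6 alone 17, where 39.2% were. Replicates 1 to 3 held 1221451 to 1382736 UMIs, of which 4.99% to 5.76% came from mitochondrial genes, and replicates 4 to 6 held 1649327 to 2091391, with 2.51% to 3.01%. The labels give the 6 libraries the same batch, and the part of these differences in the results was not tested.

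In 2D 26.3% of all tested genes were higher and 23.3% lower. Of the 20 genes of the DREAM list 16 were higher in 2D and none lower. With scaling by library size 7 were higher, where 1692 of the 11144 tested genes were higher and 3613 lower. That scaling moved the median of all genes from 0.01 to -0.20 in this comparison. Of the 13 immediate early genes 12 were lower and Myc was higher. In the list of 13 stress response genes 8 were higher and 1 lower. The further p53 targets had 13 lower and none higher of 25, among them Sfn (-1.52) and Ndrg1 (-1.11), and the upstream regulators 3 higher and 2 lower of 13. The Matrigel, day 7 and 2D comparisons share their 5 reference libraries, so that the values of a gene in them are not independent of each other.

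**Figure D4:**
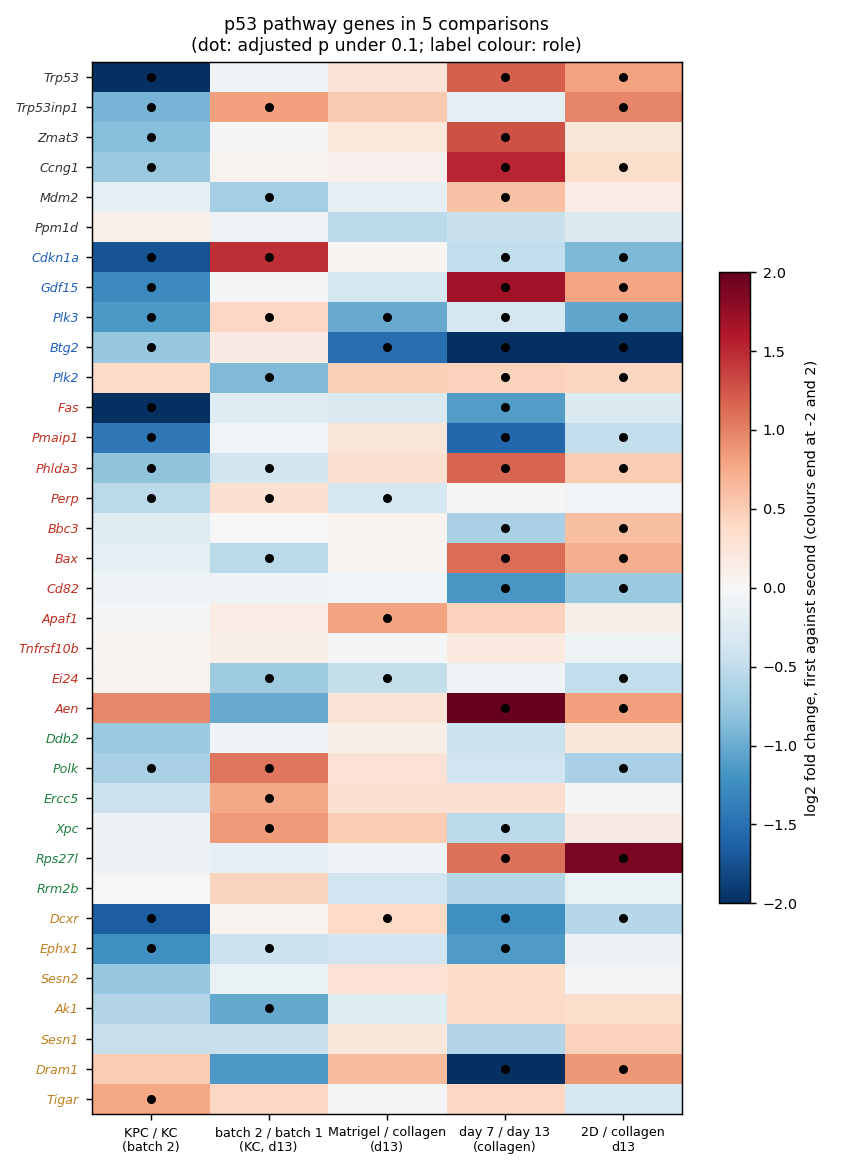
Log2 fold change of the 35 tested genes in 5 comparisons, with red for higher and blue for lower in the condition named first, colours ending at -2 and 2, and a dot for an adjusted p under 0.1. The KPC column is mostly blue (15 dots lower, 1 higher), while the day 7 column holds 10 dots that are red and 11 that are blue.

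The lowest and highest library of Tnfrsf10b were 23.6 and 43.9 CPM, and it was called in none of the 5 comparisons, as were Ppm1d, Ddb2, Rrm2b, Sesn1 and Sesn2. Btg2 and Plk3 were the genes of the list called lower in KPC, Matrigel, day 7 and 2D alike, though Plk3 lost its day 7 call in 6 of 8 fits without 1 library. The 2 genes with no test were Pidd1, with 0 to 18 UMIs per library, and Eda2r, with 0 to 4.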

How the data were processed

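The authors extracted RNA with an RNeasy Plus Micro kit, made 3'-end libraries of polyadenylated RNA with molecular identifiers, sequenced them on a NextSeq 500 and obtained the UMI count of each gene through the Drop-seq pipeline (GRCm38, GENCODE M25). The deposited values are raw counts, whole numbers for 27207 genes in 23 libraries, not normalized. Libraries were grouped by the labels. Median depth was 1845921 counts, and a count of 0 allows up to 3.

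All 6 groups were fitted together with edgeR 4.0.16 (R 4.3.3): filterByExpr kept 11144 genes, libraries were scaled by TMM, and contrasts were tested with the quasi-likelihood F-test and Benjamini-Hochberg adjustment at 0.1, the study's threshold. Log2 fold changes are edgeR's with its default prior count, and standard errors derive from the F statistic. Log2 CPM with a prior count of 2 served for the check of replicate pairing. The fit was tested on simulated counts. The 5 comparisons were KPC against KC, day 7 against day 13, Matrigel against collagen, 2D against collagen and batch 2 against batch 1. By rule, values per library were given for Trp53, Cdkn1a and Mdm2 and for called genes with an absolute log2 fold change of at least 1 in KPC organoids, statistics for all called there, elsewhere the 4 strongest calls in each direction, and at most 3 genes per direction of other lists. Other values per library were added after they had been seen. The members and the gene lists were chosen with earlier results of these data known. Alternatives were DESeq2 1.42.0, DESeq2 size factors or library size in place of TMM, other count filters, a threshold of 0.05, fits of the compared groups alone, other KC references, a replicate block and leaving out each library. Fits with each subset of the 2D libraries, or with the KC libraries of batch 1 as reference, were added after seeing the data. Positions are from GENCODE M21 and promoter windows from RefSeq (both GRCm38). Some alleles and genes are not reported here.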

Additional observations from a re-analysis of the deposited data

Results flagged for a closer look

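In 5 of 70 groups of values (35 genes in the groups of 5 and of 6 libraries), 1 library lay apart from the others by Dixon's criterion, which chance alone meets in about 1 of 20 groups. Zmat3 had 26.4 CPM in replicate 4 of the KC organoids in collagen at day 13 of batch 1, where the other replicates had 17.6 to 20.1 CPM. Sesn1 had 9.59 CPM in replicate 2 of that group and 6.30 to 7.18 CPM in the others. In the 2D cultures Bbc3 had 52.2 CPM in replicate 3 against 36.97 to 41.9 CPM in the others, and Rrm2b had 21.7 CPM in the same replicate against 4.80 to 9.42 CPM. Aen had 9.67 CPM in 2D replicate 1 and 4.80 to 6.48 CPM in the others.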

How the results depend on the processing

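With another tool, scaling, filter, threshold, fit or KC reference, or without any 1 library, the 10 genes Btg2, Ccng1, Dcxr, Ephx1, Fas, Gdf15, Phlda3, Plk3, Pmaip1 and Trp53 were lower and called in KPC organoids in every setting that tested them. DESeq2 called 16 of the 35 genes, and 2048 of all 11144 tested genes. Leaving out 1 library gave 13 to 17 called genes for KPC (fewest without KC replicate 2 or KPC replicate 2), 3 to 6 for Matrigel (fewest without Matrigel replicate 3), 20 to 22 for day 7, 17 to 21 for 2D and 10 to 15 for the batches (fewest without replicate 2 of batch 2). In these fits all genes gave 1647 to 1794, 901 to 1427, 5402 to 5934, 4950 to 5703 and 3135 to 4257 calls, respectively. For Matrigel, 3 genes were called at an adjusted p under 0.05, where 1015 of all 11144 tested genes were. With the compared groups fitted alone, 10 of 33 were called for Matrigel, where 1856 of all 10568 were. For the batches, 9 of 20 were called once a minimum of 10 counts was asked of each library, which leaves fewer genes. There 3038 of all 7050 tested genes were called. Over all genes Matrigel gave 1439 calls, against 954 with library size scaling, 952 with the stricter filter and 901 without Matrigel replicate 1, and KPC gave 2223 against 4809 with the KC libraries of batch 1 as reference. Scaling by library size split the calls over all genes into 1265 higher and 598 lower for KPC (1068 and 1155 with TMM), 654 and 300 for Matrigel (738 and 701), 1692 and 3613 for 2D (2934 and 2592) and 1416 and 2602 for the batches (2149 and 2013). It moved the median of all genes to 0.13 for KPC, -0.20 for 2D and -0.18 for the batches, and left 17 genes called for 2D, 7 higher and 10 lower. The sign changed for Polk in KPC organoids (0.43 with the KC libraries of batch 1), for Cdkn1a and Mdm2 in Matrigel with all 8 KC libraries of day 13 (-0.69 and 0.014), for Cdkn1a in Matrigel when 1 library was left out (-0.037 to 0.16), for Trp53 between the batches (-0.19 to 0.00202) and for Mdm2 in 2D with library size scaling (-0.075). Apart from Polk, these were not called. The cause of these changes was not tested. Replicate numbers did not pair the libraries, since correlations of same-numbered deviations ran from -0.107 to 0.0759. With the replicate number as a block, 16 genes were called for KPC, 5 for Matrigel, 20 for day 7, 19 for 2D and 17 for the batches, and over all genes 2437, 1560, 6088, 5694 and 4804. At this depth, genes under about 10 counts per library, such as Fas in KPC organoids, Aen and Dram1, have wide errors.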
